A study of Populus yunnanensis with 9 samples.

Results

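The 100 most abundant transcripts of Yunnan poplar (Populus yunnanensis) leaves were chosen by their level, as the genes with the highest mean CPM over all 9 libraries, so the levels that follow describe a selected list. CPM is the read count of a gene divided by the library's total count and multiplied by 1000000, so 10000 CPM is a share of 1% of the counts. These 100 genes are 100 of 41335 genes listed and of 34971 with a count in any library, and each is called here by its abundance rank, 1 being the highest. Leaves came from plants given cadmium and nitrogen (Cd + N), cadmium alone (Cd) or neither (CK), with 3 libraries per group. Cd + N plants had received CdCl2 and NH4HCO3 up to 480 mg Cd and 360 mg N per kg dry soil, Cd plants only the 480 mg Cd, and CK plants no addition, over 60 d with an addition every 5 d. All groups were rooted cuttings of 15 trees from one wild habitat, 3 per pot, and they shared the chamber and the soil, which held a little cadmium before any was added. The fourth, the fifth and the sixth leaves below the apex were sampled from plants labelled as seedlings of 4 months. The sources used here do not say whether the 3 libraries of a group came from separate pots or trees, so the p-values below measure the spread between these libraries only.

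In leaves of land plants a small number of nuclear genes usually supply a large part of the messenger RNA. They typically encode the small subunit of Rubisco, the enzyme that fixes CO2, the chlorophyll a/b binding proteins of the light-harvesting antennae, other parts of the photosystems and the Calvin cycle, and metallothioneins, small cysteine-rich proteins that bind metals. Because these transcripts are so abundant, a shift in them changes the share of counts left for every other gene. The deposited data give poplar identifiers without names, and no annotation or sequence was used here, so none of the 100 genes was assigned to such a class. For the same reason leaf marker genes could not be looked up, and the tissue label was not checked. In bulk leaves, fewer cells of a type and less RNA per cell cannot be told apart.

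The libraries held between 31952278 and 40101176 counts. Within the 100 genes, Cd + N replicate 2, Cd replicate 1 and, less strongly, CK replicate 2 stood apart from the other libraries of their groups. Taken over the 100 genes, the root mean square distance (log2 scale) was 0.27 between Cd + N replicates 1 and 3, against 1.21 and 1.16 between replicate 2 and each of them. Cd replicate 1 lay 1.58 and 1.18 from Cd replicates 2 and 3, and its nearest library was CK replicate 1, at 0.56. Cd replicates 2 and 3 were themselves 0.98 apart, and the library nearest to Cd replicate 2 was Cd + N replicate 2, at 0.94. CK replicate 2 lay 0.93 and 1.04 from CK replicates 1 and 3, which were 0.58 apart. Its nearest library was Cd + N replicate 3, at 0.79. Some results that rest on these libraries are given with and without them, and the others with all 9 libraries.

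The 100 genes took 16.1%, 13.5% and 16.1% of the counts in Cd + N replicates 1, 2 and 3. They took 19.5%, 12.1% and 13.4% in the Cd libraries, and 18.6%, 17.2% and 17.0% in the CK libraries. All Cd + N libraries were thus below all CK libraries, while the Cd libraries included both the highest and the lowest share of the 9. The means were 15.3% ± 1.48 in Cd + N, 15.0% ± 3.98 in Cd and 17.6% ± 0.879 in CK (SD, n = 3 each). Counting error is small beside this spread, as the widest 95% Wilson interval of a library's share was ± 0.0137 percentage points. The share is a sum over chosen genes, and it was not tested.

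**Figure D1:**
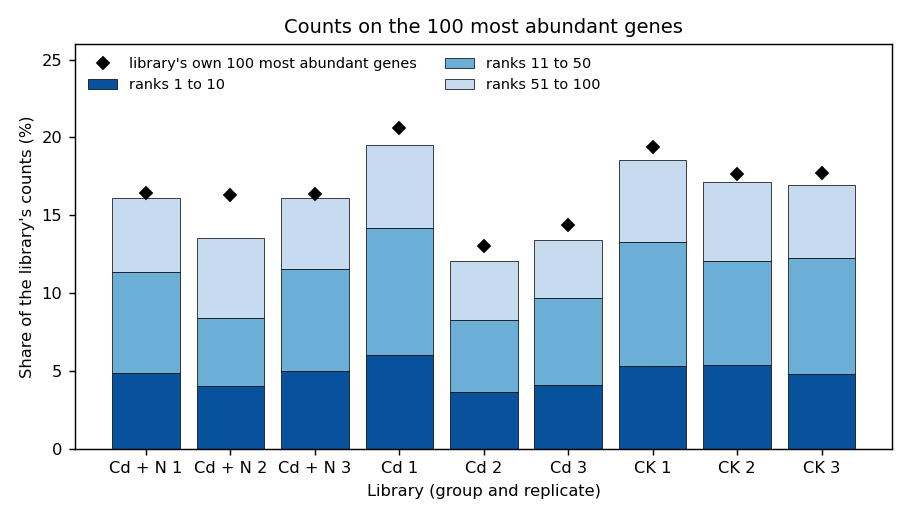
Stacked bars give the share of each library's counts (%) on the genes of ranks 1 to 10, 11 to 50 and 51 to 100, and diamonds the share on that library's own 100 most abundant genes. The bars reach 19.5% in Cd replicate 1 and 12.1% in Cd replicate 2, and the diamond lies farthest above its bar in Cd + N replicate 2 (16.3% against 13.5%).

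By the means, both treated groups lay below CK in each band of ranks within the 100 genes. The difference of Cd + N from CK was largest in ranks 11 to 50. There the highest Cd + N library (6.58%) lay below the lowest CK library (6.68%). In ranks 1 to 10 and 51 to 100 these groups overlapped. Ranks 1 to 10 took 4.61% ± 0.518 in Cd + N, 4.59% ± 1.29 in Cd and 5.15% ± 0.325 in CK. Ranks 11 to 50 took 5.81% ± 1.24 in Cd + N, 6.13% ± 1.79 in Cd and 7.39% ± 0.664 in CK. Ranks 51 to 100 took 4.83% ± 0.287, 4.28% ± 0.924 and 5.02% ± 0.298 in the same order of groups (SD, n = 3 each). The next 100 genes by rank took 5.53% ± 0.468 in Cd + N, 5.48% ± 0.722 in Cd and 6.12% ± 0.135 in CK. Ranks 201 to 1000 took 19.1% ± 0.287, 18.2% ± 0.329 and 18.5% ± 0.600 in the same order, so Cd + N was there above CK by the means. All genes below rank 1000 together took 60.1% ± 1.68, 61.3% ± 4.97 and 57.8% ± 0.984. Counts were therefore less concentrated on abundant genes in Cd replicates 2 and 3, where 2117 and 2019 genes made up 50% of the counts, than in Cd replicate 1 (1328 genes). That number was 1665, 1740 and 1695 in the Cd + N libraries, and 1444, 1526 and 1633 in the CK libraries.

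Without Cd replicate 1 the mean share in Cd was 12.7%, the difference of Cd from CK was -4.81 points in place of -2.55, and the difference of Cd + N from Cd was 2.51 points in place of 0.251. Without Cd replicate 2, Cd differed from CK by -1.08 points and Cd + N from Cd by -1.23 points, so the sign of the second difference turned. It also turned without Cd replicate 3 (-0.533 points) and without Cd + N replicate 1 or 3 (-0.166 and -0.187 points). The difference of Cd + N from CK was -2.30 points with all libraries, -1.45 points without Cd + N replicate 2, and between -1.80 and -2.74 points without any other library of these groups.

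Each library's own 100 most abundant genes overlapped the list to a different degree. In Cd + N replicate 2, 58 of its own 100 genes were in the list, against 89 in both Cd + N replicates 1 and 3. The number was 81, 75 and 78 in Cd replicates 1, 2 and 3, and 86, 91 and 84 in CK replicates 1, 2 and 3. Of the 100 genes, 36 were among the first 100 in every library, and each was among them in at least 1 library. Over the 9 libraries 191 genes reached the first 100 at least once, and 23 of the 91 genes outside the list did so in Cd + N replicate 2 alone.

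Levels of different genes were compared per length, as FPKM. The 100 genes had a median mean FPKM of 442, and the values ran from 8.86 to 10371. Of the list, 42 genes were also among the 100 highest of all genes by mean FPKM. The genes of ranks 6, 4, 2 and 7 had the highest mean FPKM of all genes, at 10371, 10225.5, 9634.5 and 9548. Rank 1, the most abundant by CPM, had a mean FPKM of 3836. The lengths recovered from count and FPKM had a median of 2880 bases over the 100 genes and 1449 over all genes with a count. A length over 10000 bases was given to 17 of the 100 genes, against 3.16% of all, and a length under 1000 bases to 23, against 36.2% of all. What these lengths measure was not established, so an FPKM of a gene with an unusually long one, such as rank 3 with 13566 bases and 470 FPKM, is uncertain. The chromosome field of the identifier was 1 for 16 of the 100 genes, against 11.5% of all genes listed. None of the 100 carried an identifier of the T type, which 4.41% of all genes listed carry.

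The 100 genes differed widely in how steady they were. The ratio of the highest to the lowest CPM over the 9 libraries had a median of 2.76, was under 2 in 18 genes and over 10 in 11. Rank 70 was the steadiest, with 984, 1012 and 961 CPM in Cd + N, 900, 1050 and 985 CPM in Cd and 996, 1081 and 1016 CPM in CK. Next came rank 10, with 3316, 2795 and 2995 CPM in Cd + N, 2614, 2876 and 2929 CPM in Cd and 2712, 3199 and 2849 CPM in CK. The 3 groups of rank 10 overlapped. Those of rank 70 overlapped in CPM on column totals, but on the TMM scale used for the tests, which corrects the totals for composition, its highest Cd library (987) lay below its lowest CK library (1016). Ranks 8 and 9, also among the 10 most abundant, averaged 2906 ± 440 and 2657 ± 160 CPM in Cd + N, 3233 ± 115 and 3167 ± 892 CPM in Cd and 3018 ± 364 and 2964 ± 287 CPM in CK (SD, n = 3 each), with overlap in every comparison. At the other end stood ranks 57, 27, 99, 56 and 5, with ratios of 3649, 472, 112, 94.6 and 93.6, and each was highest in Cd + N replicate 2. With all 3 libraries of a group, the spread within groups was larger than for genes in general under both treatments. In Cd + N this did not hold without replicate 2. The distance between Cd + N replicates 1 and 3 was 0.27 over the 100 genes, against 0.39 over all genes. The median SD of log2 CPM was 0.46 in Cd + N, 0.57 in Cd and 0.23 in CK over the 100 genes, and 0.26, 0.26 and 0.22 over all 27378 genes tested.

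In many of the 100 genes the same replicate number was lowest or highest in all 3 groups. How often this happens over all genes is not given here, nor was the spread apportioned to the number. In 40 of the 100 genes replicate 2 was the lowest library of all 3 groups, against 3 genes each for replicates 1 and 3. In 25 genes replicate 1 was the highest library of all 3 groups, against 10 for replicate 2 and 2 for replicate 3. Cd + N replicate 2 was the lowest of all 9 libraries in 49 genes and the highest in 11. The highest of all 9 was CK replicate 1 in 26 genes and Cd replicate 1 in 25. Neither the labels nor the paper say what a number shares, and its part in the differences between groups was not tested beyond the fits with the number as a block.

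**Figure D2:**
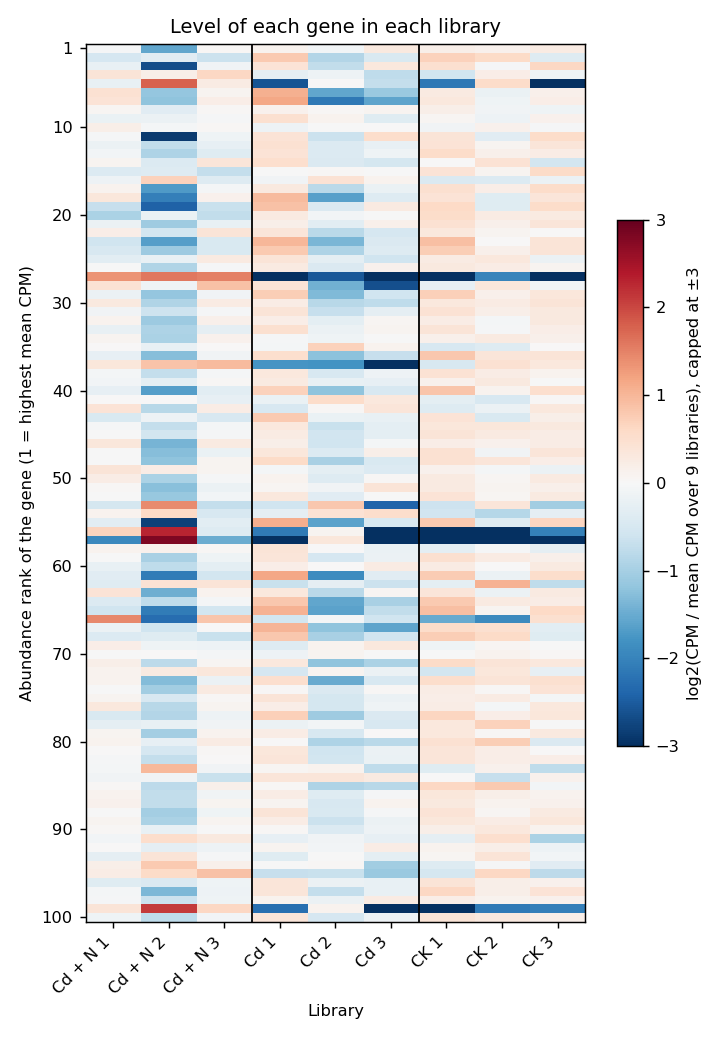
Rows are the 100 genes by abundance rank and columns the 9 libraries, coloured by log2 of the CPM over the gene's mean CPM, capped at 3 in either direction. Cd + N replicate 2 is the lowest library in 49 rows, and rank 27 lies above its mean in all Cd + N libraries and below it in all others.

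The Cd/CK comparison asks what cadmium alone changed. Most of the 100 genes had a lower share under Cd, 79 lower and 21 higher by the group means, and the lower ones summed to -3.04 points and the higher ones to 0.482 points. The lower part was spread over many genes, as 19 of them were needed to reach 50% of it. The differences of ranks 2, 3, 37, 17 and 4 were the 5 most negative, together -0.673 points, and those of ranks 16, 54, 35, 57 and 41 the 5 most positive, together 0.271 points. The median log2 fold change was -0.31 over the 100 genes and 0.01 over all genes tested. This tendency was carried by Cd replicates 2 and 3, since the median was -0.61 without Cd replicate 1 and -0.14 without Cd replicate 2. The CK libraries helped to choose the list, and which genes entered through them was not checked. For some genes a lower level than in CK may therefore follow from that choice.

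By edgeR's quasi-likelihood test with Benjamini-Hochberg adjustment over all genes, 0 of the 100 genes passed 0.05 in Cd/CK, as did 0% of the 27378 genes tested. DESeq2 passed 1 of them, rank 37, against 2.19% of all genes, and limma on log2(FPKM + 1) passed 0. For ranks 27, 57 and 67 DESeq2 gave no adjusted p in Cd/CK. At an unadjusted p under 0.05 by edgeR, 3 of the 100 genes were lower under Cd and 0 higher, against 4.28% and 5.6% of all genes. Without Cd replicate 1, 36 were lower and 1 higher at an unadjusted p, against 10.9% and 9.97% of all genes. In both directions together it was 1 without Cd replicate 2 and 1 without CK replicate 1, against 6.3% and 5.93% of all genes, and 7 without CK replicate 3, against 8.8%. The groups did not overlap in 6 genes that were lower and 3 that were higher under Cd, against 7.39% and 7.36% of all genes.

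Potri.004G086600.v3.0, the gene of rank 37, had the smallest p in this comparison. It had 386, 384 and 123 CPM in the Cd libraries, against 946, 1833 and 1652 CPM in the CK libraries, so the groups did not overlap. Its mean was 298 ± 151 CPM in Cd and 1477 ± 468 CPM in CK (SD, n = 3 each). The log2 fold change was -2.35 ± 0.51 (SE, edgeR adjusted p = 0.271), and it lay between -2.69 and -1.97 with each library left out. DESeq2 gave an adjusted p of 1.58e-04. Under Cd + N it had 1676, 2388 and 2561 CPM, above all Cd libraries.

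Other genes with a small p were closer between the groups. Rank 78 had 798, 850 and 647 CPM under Cd, against 1126, 1448 and 890 CPM in CK, a log2 fold change of -0.67 ± 0.26 (SE, edgeR adjusted p = 0.463). Ranks 85 and 80 had log2 fold changes of -1.03 and -0.90, with adjusted p of 0.486 and 0.531 by edgeR, and their groups overlapped. Rank 54 was the member with a positive difference and the smallest p, with 940, 1532 and 1654 CPM under Cd and 768, 627 and 937 CPM in CK. The log2 fold change was 0.72 ± 0.33 (SE, edgeR adjusted p = 0.524). The lowest Cd library of rank 54 exceeded the highest CK library by 2.77 CPM on column totals, and on the TMM scale these libraries stood at 1031 and 937 CPM.

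The gene that contributed most to the lower share under Cd, rank 2, shows how far single libraries mattered. It had 12716, 4026 and 5400 CPM in the Cd libraries and 12015, 11125 and 5693 CPM in the CK libraries. Cd replicate 1 was its highest library of the 9, and the groups overlapped. The log2 fold change was -0.40 ± 0.61 (SE, edgeR adjusted p = 0.852), and it was -1.19 without Cd replicate 1.

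**Figure D3:**
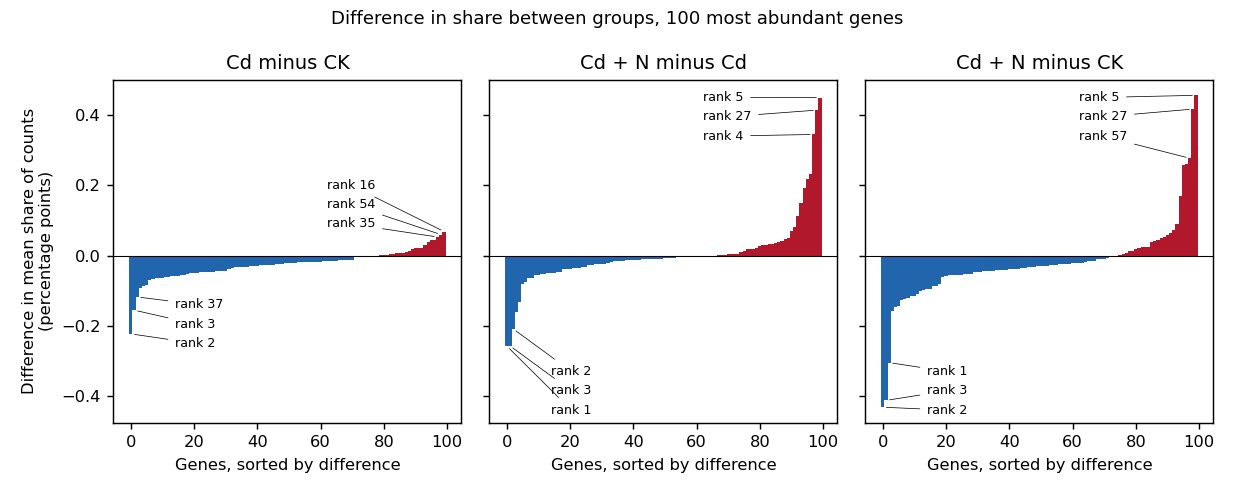
Bars give, for each of the 100 genes, the difference in mean share of counts between 2 groups in percentage points, sorted within each panel, with the ranks of the 3 lowest and 3 highest written beside them. The panels share the CK or the Cd libraries. The differences of Cd + N run from -0.432 to 0.456 points against CK, and those of Cd against CK from -0.223 to 0.0683 points.

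The comparison of Cd + N with Cd asks what adding nitrogen changed under cadmium. The total share of the 100 genes was close in both groups, while single genes differed in opposite directions, 66 lower with a sum of -2.50 points and 34 higher with a sum of 2.75 points. With column totals alone, 57.6% of all genes tested had a negative log2 fold change by edgeR. Ranks 5, 27, 4 and 57 made up over 50% of the higher part. For ranks 27 and 57 this follows from the choice of the list. Rank 27 entered it through all of its Cd + N libraries, and rank 57 through Cd + N replicate 2 alone. By the mean of the 6 Cd and CK libraries, 10 of the 100 genes (ranks 27, 56, 57, 66, 83, 91, 93, 94, 95 and 99) would not be among the first 100. A level under Cd + N above that mean is thus built into these 10, and their tests against Cd or CK are descriptions. Rank 93 was still lower in Cd + N than in CK by the means, at 809 and 856 CPM. Ranks 5 and 4 would stay, at places 19 and 4. Ranks 1, 3, 2, 19 and 11 were the 5 most negative, together -1.02 points. The median log2 fold change was -0.10 over the 100 genes and -0.02 over all genes tested. It was 0.28 without Cd replicate 1 and 0.06 without Cd + N replicate 2, so the direction of the list as a whole depended on either library.

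By edgeR's quasi-likelihood test, 0 of the 100 genes had an adjusted p under 0.05 in this comparison, as did 0% of all genes tested. DESeq2 passed 2, ranks 37 and 95, against 3.64% of all genes, and limma on log2(FPKM + 1) passed 0, against 0.256% of all genes. For ranks 27, 57 and 67 DESeq2 gave no adjusted p here either. At an unadjusted p under 0.05, edgeR gave 4 higher genes and 1 lower gene under Cd + N, against 6.81% and 5.69% of all genes. This count was 13, all higher, without Cd replicate 1, where 8.48% of all genes were higher and 6.91% lower. It was again 5, 4 higher and 1 lower, without Cd + N replicate 2, against 9.64% of all genes. It was 8 without Cd replicate 2, against 12.8% of all genes, and 3 without Cd replicate 3, against 8.09%. The groups did not overlap in 9 genes that were higher and 4 that were lower, against 9.67% and 7.96% of all genes.

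Rank 37 again had the smallest p, with the values given above. Its log2 fold change in Cd + N against Cd was 2.90 ± 0.52 (SE, edgeR adjusted p = 0.128 and 3.1e-07 by DESeq2), and leaving out single libraries gave 2.52 to 3.23. Its mean under Cd + N was 2208 ± 469 CPM, against 298 ± 151 CPM under Cd.

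The gene with the most even separation was rank 27, Potri.013G101000.v3.0. It had 3940, 4581 and 4398 CPM in the Cd + N libraries, against 99.7, 262 and 132 CPM in the Cd libraries. The lowest Cd + N library exceeded the highest Cd library 15.0-fold. The gene stood at place 7, 6 and 5 among all genes in the Cd + N libraries, against 1710, 403 and 1241 in the Cd libraries. Its mean was 4306 ± 330 CPM in Cd + N and 165 ± 86.0 CPM in Cd (SD, n = 3 each). The log2 fold change was 4.78 ± 1.41 (SE, edgeR adjusted p = 0.251), between 4.56 and 5.23 with each library left out. The adjusted p was 0.027 without CK replicate 2, and up to 0.587 over the other alternatives. DESeq2 gave no adjusted p for this gene.

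Rank 95, another of those 10 genes, had 902, 1148 and 1422 CPM under Cd + N, against 483, 491 and 360 CPM under Cd, without overlap. Its log2 fold change was 1.41 ± 0.41 (SE, edgeR adjusted p = 0.247 and 0.018 by DESeq2). Rank 4 lay higher in every Cd + N library, with 8240, 7069 and 9599 CPM, against 5209, 5641 and 3715 CPM under Cd (log2 fold change 0.81 ± 0.43 SE, edgeR adjusted p = 0.472). It alone accounted for 0.345 points of the share of counts.

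Ranks 5 and 56 were highest in replicate 2 of Cd + N and also of Cd. Rank 5 had 3153, 12586 and 4330 CPM under Cd + N and 609, 3714 and 2254 CPM under Cd, and was the most abundant of all genes in Cd + N replicate 2. The estimate was a log2 fold change of 1.72 ± 1.21 (SE, edgeR adjusted p = 0.59). Rank 56 had 1779, 5492 and 856 CPM under Cd + N and 257, 1193 and 98.7 CPM under Cd (log2 fold change 2.48 ± 1.08 SE, edgeR adjusted p = 0.4).

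On the lower side, Potri.004G085400.v3.0, the gene of rank 19, had 1271, 383 and 1299 CPM under Cd + N, against 3797, 1528 and 2456 CPM under Cd, and the groups did not overlap. The log2 fold change was -1.40 ± 0.59 (SE, edgeR adjusted p = 0.385). For ranks 1, 3 and 11 the lower mean came largely from Cd + N replicate 2. Rank 1 had 8336, 2889 and 8734 CPM under Cd + N and 9211, 8044 and 10435 CPM under Cd. Its log2 fold change was -0.43 with all libraries and -0.08 without Cd + N replicate 2. Rank 3 had 5489, 1007 and 5953 CPM under Cd + N and 8413, 3817 and 7931 CPM under Cd. Rank 11 had 2830, 396 and 2663 CPM under Cd + N and 3848, 1862 and 4172 CPM under Cd. With each library left out the log2 fold change ran from -1.03 to -0.22 for rank 3 and from -1.10 to -0.24 for rank 11.

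**Figure D4:**
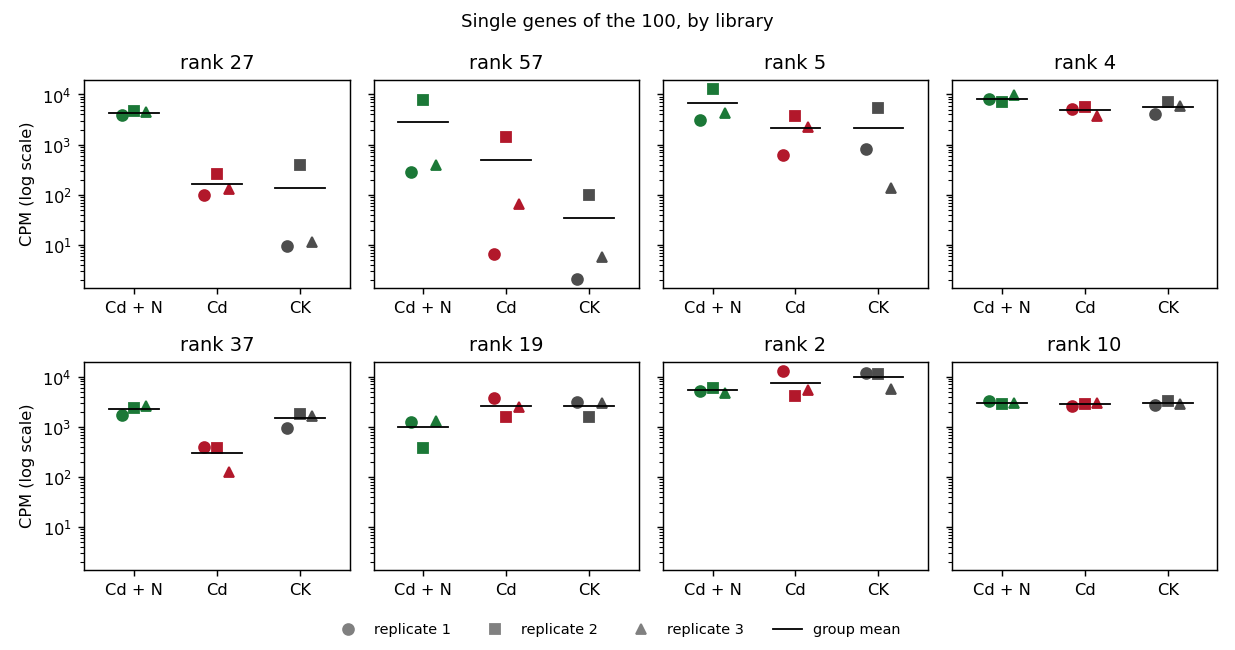
Points give the CPM (log axis) of 8 of the 100 genes in each library, marked by replicate number, and lines the group means. Rank 27 sits between 3940 and 4581 CPM in all Cd + N libraries, above every Cd and CK library, rank 57 is highest in replicate 2 of each group, and rank 10 lies between 2614 and 3316 CPM throughout.

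The comparison of Cd + N with CK sets both additions against neither, so cadmium and nitrogen cannot be told apart in it. By the group means 75 genes had a lower and 25 a higher share under Cd + N, with sums of -4.79 and 2.49 points. With column totals alone, 46.3% of all genes tested had a negative log2 fold change by edgeR. Over 50% of the lower part came from 13 genes, led by ranks 2, 3, 1, 19 and 11, and over 50% of the higher part from 4, ranks 5, 27, 57 and 4, of which ranks 27 and 57 entered the list through Cd + N. The median log2 fold change was -0.42 over the 100 genes and 0.00 over all genes tested, and it was -0.23 without Cd + N replicate 2. In 43 of the 100 genes all Cd + N libraries lay below all CK libraries, against 12.6% of all genes, and in 6 they lay above, against 13.5%. Which genes entered the list through their CK libraries was not checked. A lower level than in CK may therefore follow from the choice of the list for some. Rank 97, for example, averaged 582 CPM in Cd + N and 714 CPM in Cd, below the 765 CPM of rank 100 over all 9 libraries.

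By edgeR's quasi-likelihood test without a block, 0 of the 100 genes passed an adjusted p of 0.05, against 0.267% of all genes. In this comparison the same-numbered libraries met the limit set for a pairing, although Cd + N replicate 1 and CK replicate 3 correlated at 0.273, above the values of the pairs numbered 1 and 3. With the number as a block 3 of the 100 genes passed, 2 higher and 1 lower, against 2.95% and 2.31% of all genes. The 2 higher ones, ranks 27 and 57, are among the 10 genes that entered the list through Cd + N. DESeq2 passed 5 genes, 2 higher (ranks 56 and 99) and 3 lower (ranks 15, 20 and 60), against 4.23% and 3.05% of all genes. Limma on log2(FPKM + 1) passed 1, rank 27, against 1.01%. At an unadjusted p under 0.05 edgeR gave 4 higher and 5 lower genes, against 9.44% and 7.61% of all genes, and with the block 5 higher and 26 lower, against 12.2% and 11.4%. Without Cd replicate 1 the unblocked count was 4 higher and 22 lower, against 11% and 9.98% of all genes, and without CK replicate 1 it was 5 in all, against 9.13%. Without Cd + N replicate 2 it was 6, against 12.4% of all genes.

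Rank 27 was higher in the blocked fit, but it entered the list through Cd + N, so this is a description: its mean over the 6 Cd and CK libraries was 151 CPM, against 765 for rank 100 over all 9. CK libraries had 9.7, 388 and 11.6 CPM of this gene, beside the 3940, 4581 and 4398 CPM given above for Cd + N. The lowest Cd + N library exceeded the highest CK library, replicate 2, 10.2-fold. With the block the log2 fold change was 6.63 ± 1.35 (SE, edgeR adjusted p = 0.0436), and without it 4.93 ± 1.42 (SE, adjusted p = 0.155). Leaving out CK replicate 2 gave 8.63 (adjusted p = 0.0141 by edgeR). In share of counts the difference was 0.417 points.

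Potri.001G402600.v3.0, the gene of rank 57, was also higher in the blocked fit, with the same reserve (263 CPM over the 6 Cd and CK libraries), and it varied most between libraries. It had 289, 7735 and 395 CPM under Cd + N, against 2.12, 97.3 and 5.81 CPM in CK, and 6.67, 1401 and 65.5 CPM under Cd. In each group replicate 2 was far above the others, and within each replicate number the Cd + N library was the highest and the CK library the lowest. The smallest of these values rests on 85 counts. The blocked log2 fold change was 6.55 ± 0.64 (SE, edgeR adjusted p = 0.0136), and the unblocked one 6.28 ± 2.49 (SE, adjusted p = 0.255). With each library left out the unblocked one ran from 3.24 to 9.46. In Cd + N replicate 2 it was the second most abundant of all genes, and its mean over the other 8 libraries was 283 CPM.

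Rank 19 fell in the blocked fit, and it did not owe its place to Cd + N, its lowest group. It had 1271, 383 and 1299 CPM under Cd + N, against 3118, 1596 and 2993 CPM in CK. The mean was 985 ± 521 CPM in Cd + N and 2569 ± 845 CPM in CK (SD, n = 3 each). With the block the log2 fold change was -1.54 ± 0.32 (SE, edgeR adjusted p = 0.0454), and without it -1.42 ± 0.59 (SE, adjusted p = 0.27).

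Ranks 15 and 20 were the lower genes with the smallest p without the block. Rank 15 had 1664, 1694 and 1338 CPM under Cd + N, against 2905, 2320 and 3272 CPM in CK, with the Cd libraries between at 2170, 2252 and 2183 CPM. Its log2 fold change was -0.89 ± 0.28 (SE, edgeR adjusted p = 0.183 and 1.17e-04 by DESeq2). Rank 20 had 1012, 1700 and 1155 CPM under Cd + N, against 2852, 2312 and 2348 CPM in CK, a log2 fold change of -1.00 ± 0.33 (SE, edgeR adjusted p = 0.194 and 0.00801 by DESeq2). Both genes were lower in 3 of 3 Cd + N libraries than in any CK library.

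Ranks 56 and 99, which passed by DESeq2 alone, are both among the 10 genes that entered through Cd + N. For ranks 27 and 57, DESeq2 had given no adjusted p in Cd/CK or Cd + N/Cd. Rank 56 had 1779, 5492 and 856 CPM under Cd + N, against 59.2, 58.0 and 272 CPM in CK. Its log2 fold change was 4.37 ± 1.18 (SE, edgeR adjusted p = 0.139 and 0.00518 by DESeq2). Rank 99 had 1011, 3303 and 1172 CPM under Cd + N, against 49.1, 177 and 186 CPM in CK (log2 fold change 3.71 ± 1.14 SE, edgeR adjusted p = 0.173 and 0.00211 by DESeq2). Neither gene's groups overlapped, and Cd + N replicate 2 was the highest library of both. With each library left out the log2 fold change ran from 3.33 to 5.48 for rank 56 and from 2.96 to 4.00 for rank 99. Rank 5, which had the largest difference in share (0.456 points), had 835, 5415 and 134 CPM in CK, so its groups overlapped.

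**Figure D5:**
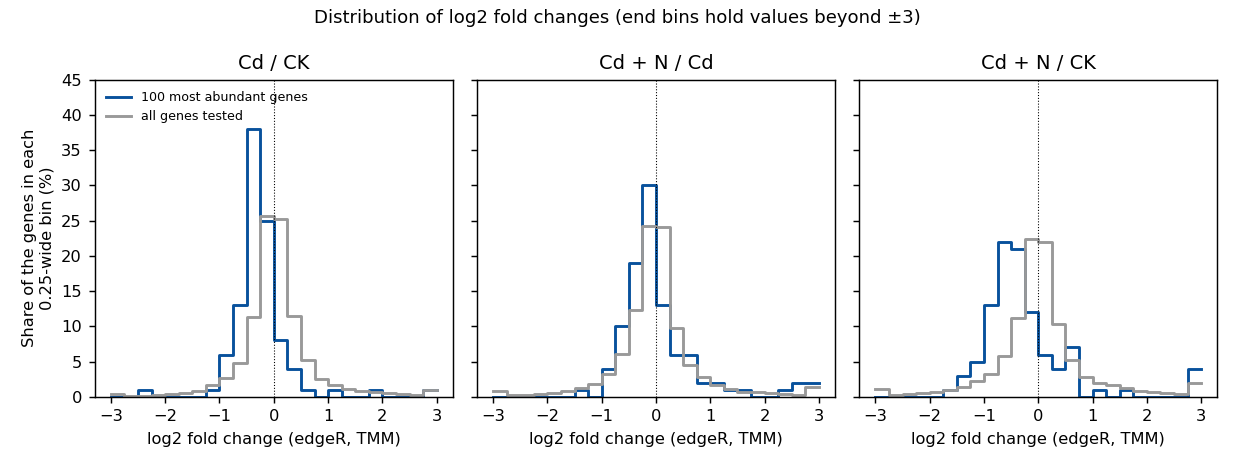
Lines give the share of genes (%) in bins of 0.25 of the log2 fold change (edgeR, TMM scaling), for the 100 most abundant genes and for all genes tested, with values beyond 3 in either direction in the end bins. The line of the 100 genes lies to the left of zero in Cd/CK and Cd + N/CK, with medians of -0.31 and -0.42.

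A few of the 100 genes carry identifiers that follow each other directly, and 3 such pairs were found. Ranks 6 and 7 kept nearly one ratio of CPM, between 1.07 and 1.19 in 7 libraries and 1.71 and 1.58 in Cd replicates 2 and 3. Rank 2 was between 6.93 and 8.09 times rank 68 in all 9 libraries. In contrast, the ratio of rank 42 to rank 67 ran from 0.462 in Cd replicate 1 to 5.04 in Cd replicate 3, although both have a recovered length of 414 bases. No sequences were compared, so whether such neighbours are alike or share reads is not known. How the authors assigned reads that match several genes is not given in the sources used here.

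Over the 9 libraries, the log2 CPM of rank 5 was most like that of ranks 91, 57 and 27 (Pearson's r of 0.92, 0.85 and 0.82), and that of rank 2 most like ranks 68, 64 and 96 (0.996, 0.82 and 0.81). These are descriptions, since the 9 points share the 3 groups and the replicate numbers.

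At the edge of the list, ranks 99 and 100 had mean CPM of 768 and 765, and the next 2 genes, just outside, 754 and 752. Rank 100 had 695, 452 and 722 CPM under Cd + N, 987, 541 and 686 CPM under Cd and 1001, 937 and 864 CPM in CK. The first gene outside had 737, 372 and 682 CPM under Cd + N, 862, 661 and 892 CPM under Cd and 894, 847 and 841 CPM in CK. Both were lowest in Cd + N replicate 2, as were 49 of the 100 genes. Rank 99 was instead highest in that library, and its mean over the other 8 libraries was 451 CPM.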

How the data were processed

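Leaf RNA of 9 samples was analysed, with groups and numbers from the labels. The authors deposited read counts per gene without normalization, and FPKM values that equalled the counts scaled to a gene length and the library total within a relative tolerance of 1e-06. The submitters' processing notes name Bowtie2 2.0.6 and TopHat2 2.0.12, and the counting tool, the genome build and the strand setting are not given in the sources used here.

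Genes were ranked by mean CPM on column totals, and levels and shares are on that scale. The 100 genes, lists and tests were chosen with earlier results of these data known. Counts were tested in R 4.3.3 with edgeR 4.0.16 (TMM factors, filterByExpr with a minimum count of 10 and a minimum total of 15, quasi-likelihood test on all 9 libraries), which kept 27378 genes and all 100 of the list. P-values were adjusted over all genes tested by the Benjamini-Hochberg method. Standard errors (SE) are approximate, computed from each fold change and its F statistic. Non-overlap was counted in TMM-scaled CPM. Distances and SDs used log2(TMM-scaled CPM + 0.5). Alternatives were DESeq2 1.42.0, limma 3.58.1 on log2(FPKM + 1) and log2(FPKM + 0.1) for genes of at least 1 FPKM in at least 3 libraries, and those of the closing section. The edgeR script was tested on simulated data.

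The deviations of same-numbered Cd + N and CK libraries from the group means correlated over genes, at 0.183, 0.323 and 0.115, all over the limit of 0.1, so the blocked fit is given beside that comparison, although 1 pair of unlike numbers (1 and 3) reached 0.273. No pair of replicates agreed within sampling noise (chi-square per gene of at least 28.0).

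Genes named are the 10 most abundant, the 5 with the largest difference in share in each direction and the 5 with the smallest p in each comparison, the 5 with the largest ratio of highest to lowest CPM, and the 2 genes on either side of the limit of the list. The 3 genes most like ranks 2 and 5 were also fixed by rule. They are given by rank, with the identifier of only 4, since the deposited tables do not pair identifiers with names. Ranks 60, 64, 70 and 97 and the pairs of consecutive identifiers were chosen after their values were seen. Functional classes, promoter motifs and protein sequences had been planned and were not run, as no annotation was used here. Intervals cover counting error only.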

Additional observations from a re-analysis of the deposited data

How the results depend on the processing

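The count of all genes past an adjusted p of 0.05 was 0 in Cd/CK, 0 in Cd + N/Cd and 73 in Cd + N/CK. In the same order it was 627, 1069 and 2135 by DESeq2 and 4, 313 and 1442 with the replicate block. It was 61 in Cd + N/Cd and 240 in Cd + N/CK with limma on log2(FPKM + 1), 25 and 179 with that fit without a filter, 197 in Cd + N/CK with log2(FPKM + 0.1), and 2 in Cd + N/Cd with only the 2 groups. With each library left out it ran from 0 to 499, from 0 to 22 and from 0 to 440.

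For the 100 genes the count of 0 in each comparison became 1, 2 and 5 by DESeq2, 1 in Cd + N/Cd and 3 in Cd + N/CK with the block, and 1 in Cd + N/CK with either FPKM pseudocount. With each library left out it ran from 0 to 1 in each comparison: it was 1 in Cd/CK without Cd replicate 1 (rank 64, adjusted p = 0.0499 by edgeR), and 1 in both comparisons of Cd + N without CK replicate 2 (rank 27). At an unadjusted p the counts of 3, 5 and 9, against 9.88%, 12.5% and 17.1% of all genes, became 8, 12 and 19 by DESeq2 (10.2%, 12.9% and 17% of all), 10, 10 and 31 with the block (13.2%, 17.6% and 23.6%), and 6, 12 and 19 with limma on log2(FPKM + 1) (8.88%, 11.9% and 16.3%) and again 6, 12 and 19 on log2(FPKM + 0.1) (9.06%, 11.9% and 16.2%). They were 5 in Cd/CK with column totals alone (10.1%), 10 in Cd + N/Cd with limma without a filter (10.8%), and 3 in Cd + N/Cd (10.9%) and 19 in Cd + N/CK (19.1%) with only the 2 groups. With each library left out they ran from 1 (without CK replicate 1 5.93% of all, without Cd replicate 2 6.3%) to 37 (without Cd replicate 1, 20.9%), from 3 (without Cd replicate 3, 8.09%) to 13 (without Cd replicate 1, 15.4%) and from 5 (without CK replicate 1, 9.13%) to 26 (without Cd replicate 1, 21%). The block is printed for Cd/CK and Cd + N/Cd here only, since replicates 3 correlated at just 0.0543 and 0.0449 there and the limit for a pairing was not met. Replicates 1 and 2 were over that limit in both, at 0.395 and 0.385 in Cd/CK and at 0.135 and 0.435 in Cd + N/Cd. A missed limit therefore does not show that pairing was absent there.

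The share of counts was 10.4%, 10.7% and 12.5% in Cd + N, Cd and CK for the 50 most abundant genes, 20.8%, 20.5% and 23.7% for the 200 most abundant, and 10.9%, 9.92% and 11.4% for 100 genes ranked by mean FPKM, of which 42 were shared. In CK it was 16.4% without the most abundant member of each library, and in Cd + N 13.4% for 100 genes ranked by mean rank. With each library left out it ran from 14.8% to 16.1% in Cd + N, from 12.7% to 16.5% in Cd and from 17.1% to 17.9% in CK.

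Of 702 alternative values for 39 log2 fold changes of single genes, 684 kept direction and side of the threshold and 15 passed it in place of failing. The other 3 reversed with 1 library left out. Rank 57 ran from -0.11 (without Cd replicate 2) to 6.83 in Cd/CK, and from -0.40 (without Cd + N replicate 2) to 6.39 in Cd + N/Cd, and rank 2 ran from -0.82 to 0.29 (without Cd replicate 1) in Cd + N/Cd. What caused these shifts was not tested. With 3 libraries per group, it is the spread between libraries and not the count per gene, at least 85, that limits the precision of the 100 genes.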
